A study of Mus musculus with 12 samples.

Results

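The enzymes that place acetyl groups on histones were followed through RNA-seq of mouse colonic crypts. The group consists of the 10 genes Crebbp, Ep300, Kat2a, Kat2b, Kat5, Kat6a, Kat6b, Kat7, Kat8 and Hat1, taken by symbol from the 55471 genes of the count table. All 10 were among the 14610 genes with enough reads to be tested. The study crossed a knock-in allele of CBP, the product of Crebbp, with deletion of p53 in the intestinal epithelium, and each of the 4 genotypes was represented by crypts of 3 mice. CBPWTp53-floxed mice carried normal CBP and floxed p53 without Cre (labelled WT), and CBPAAp53-floxed mice carried CBP in which a pair of phosphorylated serines was replaced by alanines (labelled AA). CBPWTp53ΔIEC and CBPAAp53ΔIEC mice had the same CBP genotypes with p53 removed by Cre under the Villin promoter, which is active in intestinal epithelial cells (labelled Vil_p53KO_WT and Vil_p53KO_AA). All mice were untreated females of the C57BL/6J strain, 8 weeks old, and all 4 groups carried the floxed p53 allele. The knock-in was present in every tissue. It was made in embryonic stem cells, for which the study's methods name another strain in a first section and a C57BL/6 substrain in a later section. The methods state that the line was then backcrossed. They describe a selection cassette flanked by loxP sites downstream of the mutated exon, and no step that removed it. Cre was present only in the p53-deleted groups, so effects of Cre and of p53 deletion cannot be told apart.

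Histone acetyltransferases transfer the acetyl group of acetyl-CoA to lysines of the histone tails, which loosens chromatin and creates docking sites for bromodomain and YEATS-domain proteins. CBP and its paralogue p300 (Ep300) are large co-activators that bind many transcription factors, p53 among them, and acetylate histone H3 at enhancers as well as p53 itself. GCN5 (Kat2a) and PCAF (Kat2b) are the catalytic subunits of the SAGA and ATAC complexes. TIP60 (Kat5), MOZ (Kat6a), MORF (Kat6b), HBO1 (Kat7) and MOF (Kat8) form the MYST family, and HAT1 acetylates newly made histone H4 before it is placed on replicated DNA.

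The CBP genotype that separates the groups lies in exon 25 of Crebbp, and the reference sequence of that exon is shown because it is the change the study made in one of the 10 genes. On GRCm38 the exon holds 1 pair of serine codons 4 residues apart, codons 1383 and 1387 of the longest coding transcript. The stretch of Crebbp lies at chr16:4094248-4094319 on the minus strand, and the matching stretch of exon 25 of Ep300 at chr15:81639996-81640067 on the plus strand. Capitals mark the codon pair.
Crebbp: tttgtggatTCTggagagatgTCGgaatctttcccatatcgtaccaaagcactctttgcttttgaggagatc
Ep300: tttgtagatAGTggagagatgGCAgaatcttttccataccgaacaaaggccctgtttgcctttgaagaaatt
Of the 72 bases, 56 were the same in both genes. In Ep300 the first codon of the pair, codon 1345, also encodes serine, whereas the second, codon 1349, encodes alanine in the reference. The alanine codons of the knock-in allele are not in this reference, and read counts per gene do not distinguish the 2 alleles of Crebbp. The following values are therefore amounts of transcript, not of phosphorylated or active enzyme.

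Each library held between 11177430 and 18029125 reads assigned to genes. Trp53 was present at 27.9 ± 2.94 TPM (the share of all transcripts corrected for gene length, mean ± SD, n = 3) in CBPWTp53-floxed, 29.2 ± 5.28 in CBPAAp53-floxed, 4.29 ± 1.10 in CBPWTp53ΔIEC and 5.28 ± 0.763 TPM in CBPAAp53ΔIEC crypts, so that the p53 labels matched the data in both CBP genotypes. All 12 epithelial markers and all 7 markers of colon epithelium passed the filter on low counts, with summed levels of 17780 to 25400 and 10914 to 24481 TPM. Of 10 stromal, 5 endothelial and 12 leukocyte markers 2, 1 and 5 passed it, and these lists summed to at most 8.33, 1.48 and 6.58 TPM in any library. A pair of libraries stood apart. CBPAAp53-floxed replicate 2 and CBPWTp53ΔIEC replicate 1 had the lowest level of long genes (at least 6000 exon bases, 4014 genes) relative to short genes (under 2000 bases, 3053 genes), with a median difference of -0.41 and -0.28 on the log2 scale against -0.05 to 0.19 in the other 10 libraries. Transcripts typical of the small intestine summed to 907 TPM in the former and 3828 TPM in the latter, and to 778 and 1741 TPM in CBPAAp53ΔIEC replicates 1 and 3, whereas the other 8 libraries held 134 to 197 TPM. The markers of colon epithelium summed to 16246 to 24481 TPM with p53 deleted and to 10914 to 16365 TPM without. Car1 held the largest share of this sum, with a mean of 12541 TPM. Of the 7 markers 4 were higher and 3 lower in CBPWTp53ΔIEC than in CBPWTp53-floxed crypts, with a median log2 difference of 0.07. Averaged over the CBP genotypes 5 were higher and 2 lower with p53 deleted. The part of the small-intestinal and colon marker patterns in the differences of the 10 genes was not tested. Values without the pair are given beside the results of Ep300, Kat6a and Kat6b, the interaction and several gene lists. For the remaining members they are given only in part.

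Levels of the 10 genes, compared per unit length, ran from 7.29 to 31.0 TPM. Kat7 was the most abundant with 31.0 ± 2.43 TPM (mean ± SD over all 12 libraries), followed by Kat2a (27.3 ± 3.82), Kat5 (26.4 ± 1.43), Kat2b (24.7 ± 4.47) and Kat6a (22.4 ± 5.58 TPM). The middle of the order was taken by Ep300 at 16.1 ± 4.01, Hat1 at 12.7 ± 2.20 and Kat8 at 12.5 ± 1.89 TPM. Crebbp, at 8.66 ± 1.55 TPM, and Kat6b, at 7.29 ± 1.55 TPM, were the lowest. The median over all tested genes was 12.3 TPM, so that CBP and MORF transcripts lay below it and HBO1 transcripts above 73.8% of tested genes. Neighbours in this order were told apart in all 12 libraries at only 3 places: Kat6a exceeded Ep300, Kat8 exceeded Crebbp, and Crebbp exceeded Kat6b. Kat7 exceeded Kat2a in 11 libraries, whereas Kat2a, Kat5 and Kat2b changed places from library to library, as did Hat1 and Kat8.

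**Figure D1:**
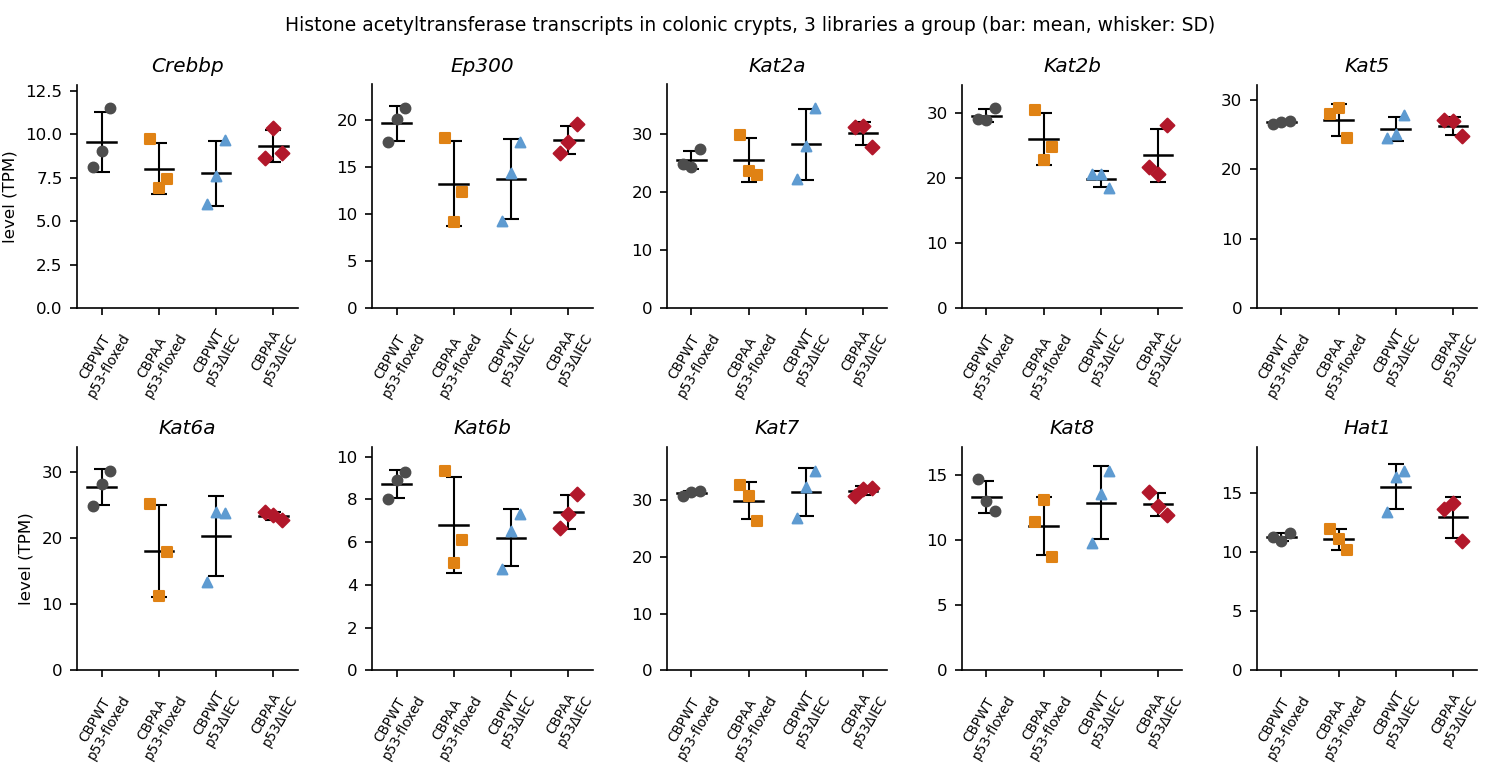
Transcript level (TPM, linear axes from 0) of the 10 histone acetyltransferase genes in colonic crypts of the 4 genotypes. Each point is 1 mouse, horizontal bars are group means and whiskers the SD of 3 mice. Kat5 and Kat7 vary little, and Ep300 and Kat6a have 1 low library in CBPAAp53-floxed and 1 in CBPWTp53ΔIEC. Kat2b is lower in all 3 CBPWTp53ΔIEC libraries than in any p53-floxed library, and 2 of the 3 CBPWTp53ΔIEC libraries are the highest for Hat1.

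Between genotypes, Hat1 was higher and Kat2b, Ep300 and Kat6b were lower in CBPWTp53ΔIEC than in CBPWTp53-floxed crypts, each by about 0.5 on the log2 scale, and only the Hat1 difference passed the adjusted threshold. No gene of the 10 reached the cutoff, an adjusted p under 0.05 with a log2 difference over 0.5 in size, in the edgeR fit of any comparison. For CBPAAp53-floxed against CBPWTp53-floxed the count was 0 of 10 where 0% of all tested genes passed, with 2 of 10 at an unadjusted p under 0.05 (8.04% of all tested genes), and 0 of 10 by DESeq2 (0.122%). For CBPWTp53ΔIEC against CBPWTp53-floxed it was 0 of 10 where 3.15% of tested genes passed. Here 1 of 10, Hat1, passed by adjusted p alone (3.72% of tested genes), 5 of 10 had an unadjusted p under 0.05 (20.9%), and 1, Kat2b, passed by DESeq2 (6.31%). CBPAAp53ΔIEC against CBPAAp53-floxed gave 0 of 10 (0.0274% of tested genes), with 0 at an unadjusted p under 0.05 (12.6%) and 0 by DESeq2 (0.503%). CBPAAp53ΔIEC against CBPWTp53ΔIEC also gave 0 of 10 (0.00684%), with 1, Hat1 at -0.31 (95% interval -0.56 to -0.06, adjusted p = 0.985), at an unadjusted p under 0.05 (3.57%) and 0 by DESeq2 (0.00369%). The 3 libraries of one group lay wholly above or below those of the other for 5, 6, 1 and 2 of the 10 genes in these 4 comparisons, against 19.4%, 30.8%, 15% and 9.26% of all tested genes. The medians of the 10 differences were -0.10, -0.15, 0.08 and 0.12, against 0.01, 0.01, 0.01 and -0.01 over all tested genes and -0.09, -0.09, 0.08 and 0.06 over long genes. Every one of the 4 comparisons shares a group with 2 of the others, so that these values are not independent. In crypts sequenced in bulk, fewer cells of a type and less RNA per cell cannot be told apart.

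**Figure D2:**
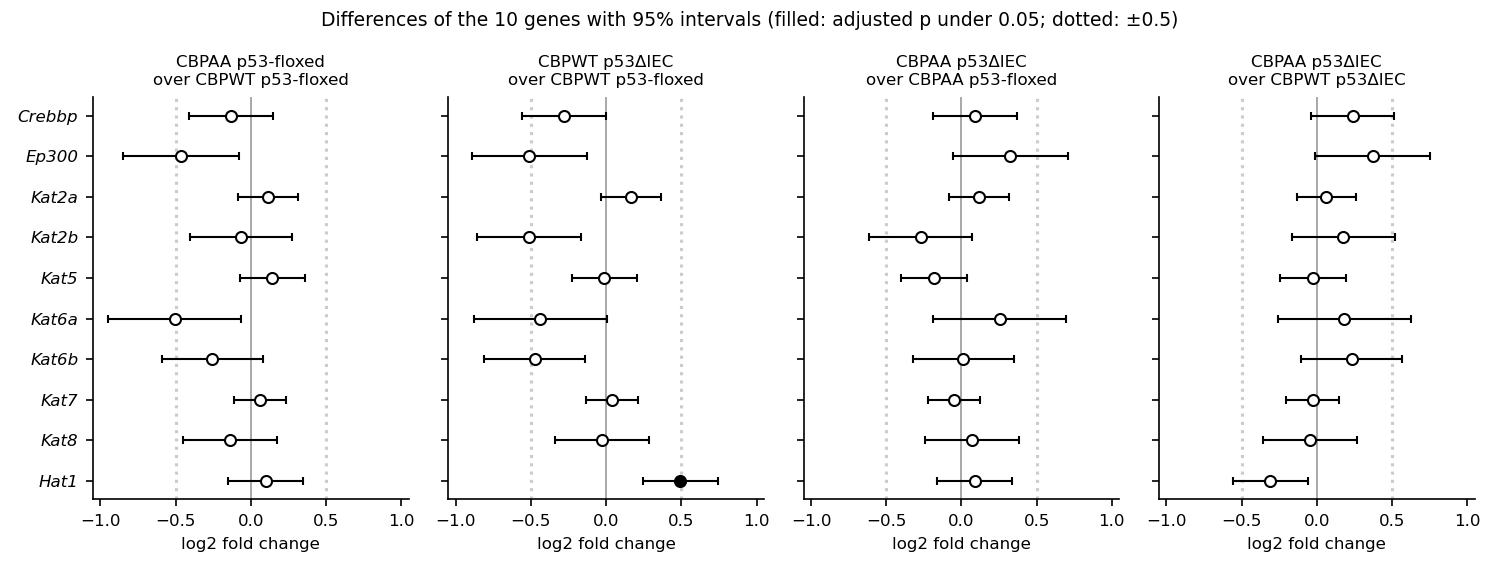
Log2 fold change of the 10 genes with the 95% interval of the edgeR fit in the 4 comparisons of genotypes. Filled points have an adjusted p under 0.05 (Hat1 in CBPWTp53ΔIEC over CBPWTp53-floxed, at 0.49), open points do not, and dotted lines mark 0.5 in either direction.

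Crebbp (chr16:4081328-4213997, minus strand, GRCm38 here and below), the gene that carries the knock-in, passed the test in no comparison of genotypes. Its level was 8.14, 9.01 and 11.5 TPM in the 3 CBPWTp53-floxed libraries and 9.71, 6.92 and 7.44 TPM in the CBPAAp53-floxed libraries. It was 5.98, 7.60 and 9.69 TPM in CBPWTp53ΔIEC and 8.64, 10.3 and 8.93 TPM in CBPAAp53ΔIEC crypts. The 4 groups overlapped, and the highest and lowest single libraries were a CBPWTp53-floxed and a CBPWTp53ΔIEC mouse, both with normal CBP. In edgeR's quasi-likelihood fit over all 12 libraries the difference of CBPAAp53-floxed from CBPWTp53-floxed was -0.13 on the log2 scale (95% interval -0.41 to 0.15, adjusted p = 0.768), and that of CBPAAp53ΔIEC from CBPWTp53ΔIEC was 0.24 (-0.04 to 0.52, adjusted p = 0.985). Deletion of p53 gave -0.28 in CBPWT crypts (-0.56 to -0.0016, unadjusted p = 0.0489, adjusted p = 0.237) and 0.09 in CBPAA crypts (-0.19 to 0.37, adjusted p = 0.784). With the p53 states averaged, the knock-in differed by 0.05 (-0.14 to 0.25), an interval of 0.905- to 1.19-fold. This average joins effects of opposite sign. Within the p53 states the interval reached down to 0.753-fold with p53 intact and up to 1.43-fold with p53 deleted. The interaction of the CBP genotype with p53 deletion was 0.37 (-0.02 to 0.76, unadjusted p = 0.0633, adjusted p = 0.501).

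Transcripts of p300 (Ep300, chr15:81585351-81652077, plus strand) varied more between mice than those of CBP. Ep300 was at 17.6, 20.1 and 21.2 TPM in the CBPWTp53-floxed libraries, at 18.1, 9.15 and 12.4 TPM in CBPAAp53-floxed, at 9.24, 14.3 and 17.6 TPM in CBPWTp53ΔIEC, and at 16.5, 17.6 and 19.5 TPM in CBPAAp53ΔIEC. In CPM, the library's reads scaled to a common total and corrected for composition, all 3 CBPAAp53-floxed and all 3 CBPWTp53ΔIEC libraries lay below the CBPWTp53-floxed libraries. The difference from this shared control group was -0.46 for CBPAAp53-floxed (95% interval -0.85 to -0.08, unadjusted p = 0.0217, edgeR adjusted p = 0.618) and -0.51 for CBPWTp53ΔIEC (-0.90 to -0.13, unadjusted p = 0.0133, edgeR adjusted p = 0.126), and neither passed the adjusted threshold of 0.05. CBPAAp53ΔIEC crypts lay 0.37 above CBPWTp53ΔIEC (-0.01 to 0.76, adjusted p = 0.985) and 0.33 above CBPAAp53-floxed crypts (-0.06 to 0.71, adjusted p = 0.452). The lowest values, 9.15 and 9.24 TPM, came from the pair of libraries with few long transcripts. Without that pair the differences of the single mutants became -0.27 (adjusted p = 0.636) and -0.41 (adjusted p = 0.0428). Leaving out the pair was chosen after the data were seen, and it raised the genes at the cutoff in CBPWTp53ΔIEC from 460 to 1133. In the fit of the CBPWTp53ΔIEC and CBPWTp53-floxed libraries alone, Ep300 reached the cutoff at -0.51 (edgeR adjusted p = 0.0480), as it did at -0.53 (adjusted p = 0.0389) without CBPAAp53-floxed replicate 2.

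The ratio of Ep300 to Crebbp transcripts, both in TPM, was above 1 in every library. It ranged from 1.85 to 2.23 in CBPWTp53-floxed, from 1.32 to 1.86 in CBPAAp53-floxed, from 1.55 to 1.89 in CBPWTp53ΔIEC and from 1.70 to 2.19 in CBPAAp53ΔIEC crypts. The groups overlapped, and the lowest ratios of CBPAAp53-floxed and of CBPWTp53ΔIEC again came from the pair of libraries that stood apart.

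MOZ (Kat6a, chr8:22859535-22943259, plus strand) and MORF (Kat6b, chr14:21481434-21672478, plus strand), which acetylate histone H3 as catalytic subunits of closely related complexes, varied with p300 from library to library. Kat6a was at 24.9, 28.1 and 30.2 TPM in CBPWTp53-floxed libraries, at 25.1, 11.2 and 17.9 TPM in CBPAAp53-floxed, at 13.3, 23.9 and 23.8 TPM in CBPWTp53ΔIEC, and at 23.9, 23.4 and 22.8 TPM in CBPAAp53ΔIEC. Kat6b was at 8.01, 8.91 and 9.29 TPM, at 9.34, 5.00 and 6.08 TPM, at 4.74, 6.53 and 7.33 TPM, and at 6.64, 7.33 and 8.24 TPM in the same order of groups. For both genes the 2 lowest values were those of CBPAAp53-floxed replicate 2 and CBPWTp53ΔIEC replicate 1. The difference of CBPAAp53-floxed from CBPWTp53-floxed was -0.51 for Kat6a (95% interval -0.95 to -0.07, adjusted p = 0.618) and -0.26 for Kat6b (-0.59 to 0.08, adjusted p = 0.656). That of CBPWTp53ΔIEC from CBPWTp53-floxed was -0.44 for Kat6a (-0.88 to 0.003, adjusted p = 0.242) and -0.47 for Kat6b (-0.81 to -0.14, adjusted p = 0.106), and none of the 4 passed in the edgeR fit. Without the pair of libraries the latter 2 differences were -0.32 (adjusted p = 0.0480) and -0.44 (adjusted p = 0.0412), smaller in size and past the adjusted threshold but short of the fold cutoff of 0.5. That fit, chosen after the data were seen, had 1133 genes at the cutoff in CBPWTp53ΔIEC against CBPWTp53-floxed in place of 460. The differences of CBPAAp53-floxed from CBPWTp53-floxed then shrank to -0.27 for Kat6a (adjusted p = 0.554) and -0.09 for Kat6b (adjusted p = 0.913), the values also given by leaving out CBPAAp53-floxed replicate 2 alone.

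The genes that varied together were the longest of the set. The exons of Crebbp, Ep300, Kat6a and Kat6b cover 13540, 14273, 9180 and 16826 bases, whereas those of the other 6 genes cover 2886 to 5536 bases. Over the 12 libraries, Pearson's r of log2 CPM was 0.93 between Ep300 and Kat6a, 0.90 between Ep300 and Kat6b, 0.82 between Kat6a and Kat6b and 0.77 between Crebbp and Ep300. These values are descriptions over libraries that share their preparation. In CPM, CBPAAp53-floxed replicate 2 was the lowest and CBPWTp53ΔIEC replicate 1 the next lowest for each of Ep300, Kat6a and Kat6b, and they held the same ranks for the level of long genes against short ones. With an offset for exon length in each library, the difference of Ep300 was -0.30 in CBPAAp53-floxed (adjusted p = 0.620) and -0.34 in CBPWTp53ΔIEC (adjusted p = 0.0948), smaller than without the offset and of the same sign. Kat6a was -0.42 and -0.35 with the offset in these 2 comparisons, and Kat6b was -0.06 (-0.26 without the offset) and -0.27 (-0.47 without it). Crebbp turned from -0.13 to 0.05 in CBPAAp53-floxed and went from -0.28 to -0.10 in CBPWTp53ΔIEC. What part the length pattern has in these differences was not tested further.

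**Figure D3:**
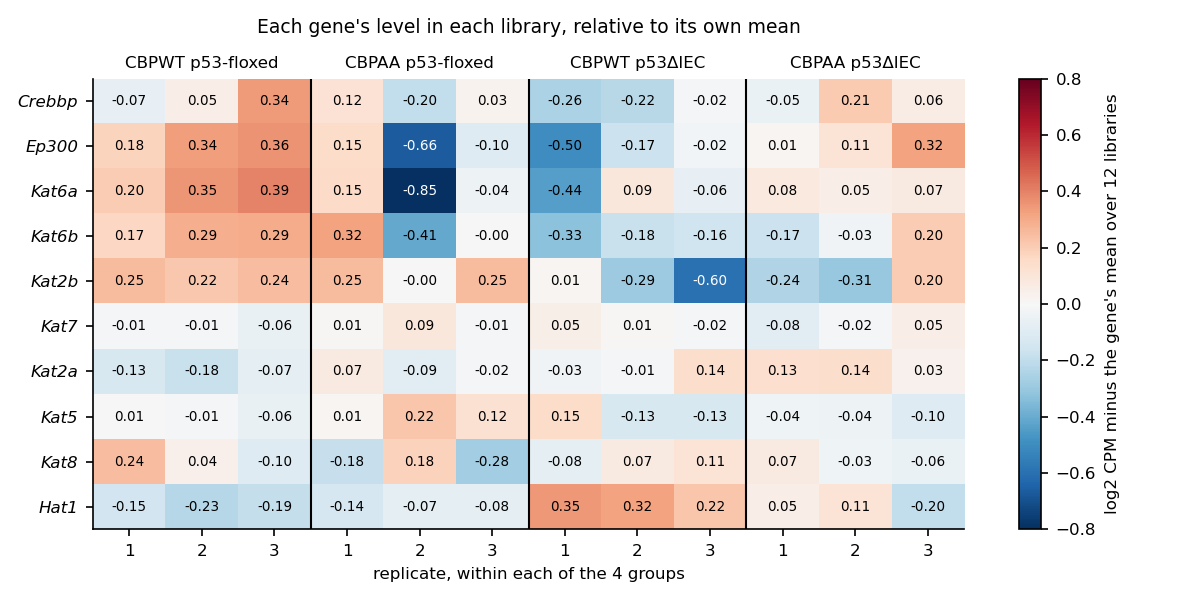
Level of each gene in each of the 12 libraries as log2 CPM minus the mean of that gene over all libraries (red above, blue below, numbers printed in the cells). Columns are the 3 replicates of each genotype. CBPAAp53-floxed replicate 2 and CBPWTp53ΔIEC replicate 1 are the lowest for Ep300, Kat6a and Kat6b, and Hat1 is above its mean in all 3 CBPWTp53ΔIEC libraries.

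**Figure D4:**
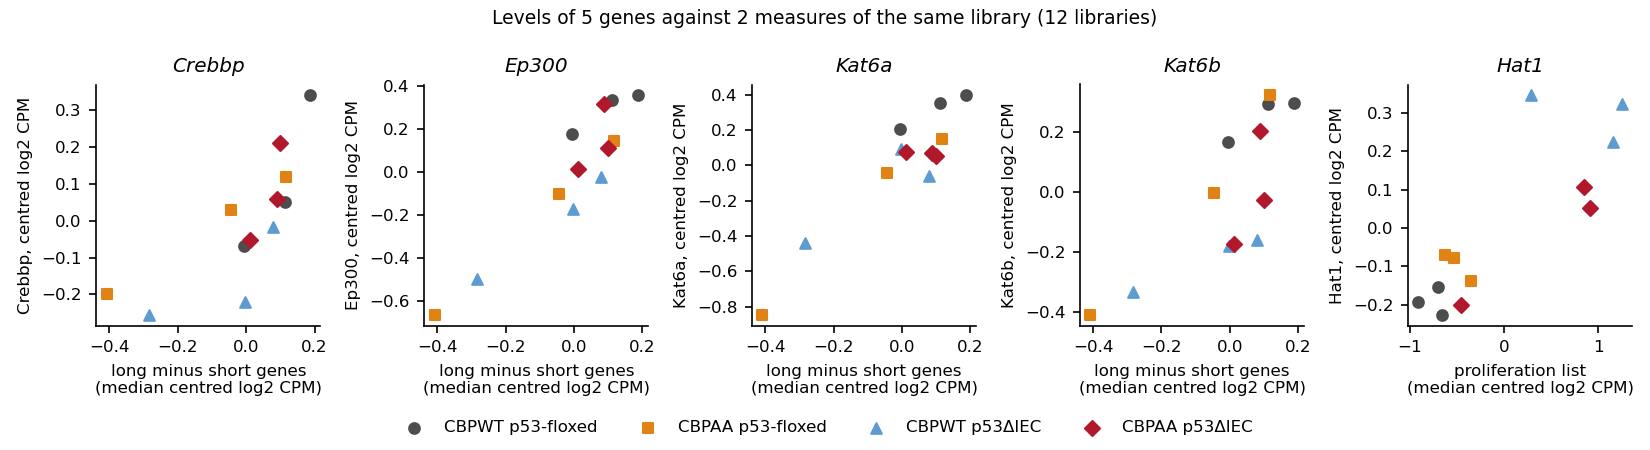
Centred log2 CPM of Crebbp, Ep300, Kat6a and Kat6b against the level of long minus short genes of the same library, and of Hat1 against the median of 20 proliferation genes (each point 1 of 12 libraries, colour and shape by genotype). The pair of libraries at -0.41 and -0.28 on the first axis is the lowest for Ep300, Kat6a and Kat6b, and Hat1 is highest in the 3 CBPWTp53ΔIEC libraries.

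GCN5 (Kat2a, chr11:100704746-100712465, minus strand) and PCAF (Kat2b, chr17:53566861-53672720, plus strand), the alternative catalytic subunits of the same complexes, differed in how their levels varied. Kat2a was at 24.4 to 27.3 TPM in CBPWTp53-floxed, 22.8 to 29.8 TPM in CBPAAp53-floxed, 22.2 to 34.3 TPM in CBPWTp53ΔIEC and 27.8 to 31.3 TPM in CBPAAp53ΔIEC crypts. The differences of Kat2a were between 0.06 and 0.16 in the 4 comparisons of genotypes, and no 95% interval went beyond 0.36 in size. Kat2b was at 29.1, 29.0 and 30.7 TPM in CBPWTp53-floxed, 30.5, 22.7 and 24.8 TPM in CBPAAp53-floxed, 20.6, 20.7 and 18.5 TPM in CBPWTp53ΔIEC and 21.7, 20.6 and 28.1 TPM in CBPAAp53ΔIEC libraries. All 3 CBPWTp53ΔIEC libraries lay below all 3 CBPWTp53-floxed libraries. The difference was -0.51 on the log2 CPM scale (95% interval -0.86 to -0.17), or 1.43-fold lower, with an unadjusted p of 0.00666 and an edgeR adjusted p of 0.0909, which missed the threshold. In CBPAA crypts the same deletion gave -0.27 (-0.61 to 0.07, adjusted p = 0.478), and the 2 effects differed by 0.24 (-0.24 to 0.73, adjusted p = 0.685), within error. With 1 library left out at a time, the effect in CBPAA crypts ranged from -0.45 to -0.18. The difference of the 2 effects then ranged from 0.065 to 0.41. Averaged over the CBP genotypes, Kat2b was -0.39 with p53 deleted (-0.63 to -0.15, adjusted p = 0.0636). In CPM, Kat2b was at 38.2 and 30.9 in CBPWTp53ΔIEC replicates 2 and 3, and at 39.6 and 37.8 in CBPAAp53ΔIEC replicates 1 and 2. CBPWTp53ΔIEC replicate 1 (47.2) and CBPAAp53ΔIEC replicate 3 (53.7) lay within the 46.7 to 55.8 of the p53-floxed libraries. The labels of the lower libraries carry numbers close to each other and apart from the rest, with no stated meaning, and this grouping was not tested. DESeq2 placed the CBPWTp53ΔIEC difference at -0.52 (adjusted p = 0.0435), past the cutoff, as did the edgeR fit without CBPWTp53ΔIEC replicate 1 (-0.68, adjusted p = 0.0225) or without CBPAAp53ΔIEC replicate 3 (-0.51, adjusted p = 0.0444). Of the 10 genes Kat2b had the smallest adjusted p of any difference below 0 in the 4 comparisons, on the border of the threshold.

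The remaining MYST enzymes passed the test in no comparison, and 2 of them, Kat7 and Kat5, varied least of the 10 relative to their mean. Kat7 (chr11:95274259-95310246, minus strand), whose product HBO1 acetylates histones H3 and H4, was within 26.3 to 35.1 TPM in all 12 libraries, and its differences between genotypes lay between -0.05 and 0.06 with intervals no wider than -0.22 to 0.23. Kat5 (chr19:5603014-5610237, minus strand), which encodes the p53-acetylating enzyme TIP60, was within 24.5 to 28.7 TPM, with differences between -0.18 (CBPAAp53ΔIEC from CBPAAp53-floxed, 95% interval -0.40 to 0.04, adjusted p = 0.458) and 0.14 (CBPAAp53-floxed from CBPWTp53-floxed, -0.07 to 0.36, adjusted p = 0.684). Kat8 (chr7:127912516-127925837, plus strand), whose product MOF acetylates histone H4, was within 8.69 to 15.3 TPM, with differences between -0.14 and 0.07 and intervals reaching -0.45 and 0.38. For these 3 genes no interval of the 4 comparisons reached beyond 0.45 in size. Kat5 shares exon bases with Rnaseh2c on the opposite strand and Kat8 with Prss8, also on the opposite strand, and since the strand setting of the counting is not stated their counts may include reads of the neighbour. Ep300 holds a miRNA gene, Gm23880, within its exons.

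Hat1 (chr2:71388958-71441622, plus strand) was the 1 gene of the 10 whose adjusted p passed 0.05 in the edgeR fit, in 1 of the 4 comparisons of genotypes. Hat1 was at 11.3, 11.0 and 11.7 TPM in CBPWTp53-floxed libraries and at 12.0, 11.2 and 10.2 TPM in CBPAAp53-floxed. It was at 13.4, 16.4 and 16.9 TPM in CBPWTp53ΔIEC and at 13.7, 14.2 and 11.0 TPM in CBPAAp53ΔIEC libraries. All 3 CBPWTp53ΔIEC libraries were above all 6 libraries with p53 intact, while CBPAAp53ΔIEC replicate 3 was level with the controls. The difference of CBPWTp53ΔIEC from CBPWTp53-floxed was 0.49 on the log2 scale (SE 0.12, 95% interval 0.24 to 0.74), which is 1.41-fold higher, with an edgeR adjusted p of 0.0388, and it lay just under the fold cutoff of 0.5. DESeq2 gave 0.49 (adjusted p = 0.00892). In CBPAA crypts the deletion gave 0.09 (-0.16 to 0.34, adjusted p = 0.764). Leaving out 1 library at a time kept the difference within 0.47 and 0.53, and the adjusted p ranged from 0.0178 to 0.165. It was above 0.05 without any 1 library of either group compared (0.0520 to 0.165) and at 0.0547 without CBPAAp53-floxed replicate 3.

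Some of the genes that act beside HAT1 in the supply of new histones rose in the same comparison. Of 8 genes for HAT1 partners and histone chaperones, all measured, 4 passed the cutoff in CBPWTp53ΔIEC against CBPWTp53-floxed, all upwards, where 2.29% of all tested genes passed upwards and 0.856% downwards. Asf1b, a chaperone that hands acetylated H3 and H4 to the deposition factors, rose by 2.23 (SE 0.45, adjusted p = 0.0329). Chaf1b and Chaf1a, subunits of chromatin assembly factor 1, rose by 1.62 (SE 0.31, adjusted p = 0.0256) and 1.41 (SE 0.26, adjusted p = 0.0254), and Nasp, which keeps a reserve of soluble histones, rose by 0.65 (SE 0.16, adjusted p = 0.0431). The median of the 8 genes was 0.54, against 0.01 over all tested genes, and all 8 were above 0. DESeq2 also called 4, as did the edgeR fit without the pair of libraries that stood apart, but 0 of 8 passed when any 1 of the CBPWTp53-floxed libraries, or CBPWTp53ΔIEC replicate 2 or 3, was left out, with medians of 0.49 to 0.55. With the replicate number as a block 0 of 8 passed (adjusted p of 0.0606 to 0.0707 for the 4 genes), and without a filter on low counts 3 did. In CBPAA crypts p53 deletion gave a median of 0.26 with 0 of the 8 at the cutoff in edgeR and 3 at an unadjusted p under 0.05. With p53 intact, all 8 were also above 0 in CBPAAp53-floxed against CBPWTp53-floxed, the same control group. Their median there was 0.23, with 0 at the cutoff. For 5 of the 8 the CPM of these groups did not overlap, against 19.4% of all tested genes. Averaged over the CBP genotypes the same 4 genes passed, Asf1b with 1.78 (adjusted p = 0.0143). The rise was not particular to this list. Of 20 proliferation genes 18 passed the cutoff upwards in CBPWTp53ΔIEC against CBPWTp53-floxed, with a median of 1.73. Averaged over the CBP genotypes all 20 passed. In CBPAAp53-floxed against CBPWTp53-floxed 17 of the 20 were above 0, with a median of 0.22 and 0 at the cutoff. These 20 genes summed to 259 to 286 TPM in CBPWTp53-floxed, 264 to 368 in CBPAAp53-floxed, 415 to 942 in CBPWTp53ΔIEC and 304 to 741 TPM in CBPAAp53ΔIEC libraries. CBPAAp53ΔIEC replicate 3, with the low Hat1, had the lowest of these sums among the p53-deleted libraries, but CBPWTp53ΔIEC replicate 1, with the highest Hat1 of all 12 libraries in CPM (18.2), had the next lowest (415 TPM). The remaining p53-deleted libraries held 719 to 942 TPM. Their labels carry numbers close to each other and apart from those of all other libraries, with no stated meaning. The part of proliferation, or of this grouping, in the differences of Hat1 and the chaperones was not tested.

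The effect of p53 deletion was compared between the CBP genotypes as an interaction. The interaction, the effect in CBPAA minus that in CBPWT crypts, was 0.84 for Ep300 (95% interval 0.29 to 1.38), from -0.51 in CBPWT to 0.33 in CBPAA crypts, with an unadjusted p of 0.00557 and an edgeR adjusted p of 0.482. The interaction was 0.69 for Kat6a (0.07 to 1.32), 0.49 for Kat6b (0.01 to 0.96) and -0.41 for Hat1 (-0.76 to -0.05), each with an adjusted p of 0.482. Without the pair of libraries that stood apart it was 0.53 for Ep300 (adjusted p = 0.620), 0.32 for Kat6a, 0.28 for Kat6b and -0.36 for Hat1, and long genes as a class had a median of 0.16 in the fit of all libraries. Of the 10 genes 0 passed the cutoff (0.00684% of tested genes) and these 4 had an unadjusted p under 0.05, compared with 10.3% of all tested genes. DESeq2 called 0 of the 10 (0.204% of genes). Averaged over the CBP genotypes, p53 deletion gave 0 of 10 at the cutoff (3.5% of tested genes, 4.93% by adjusted p alone), with 2, Kat2b and Hat1, at an unadjusted p under 0.05 (21.9%) and 0 by DESeq2 (4.99%). Averaged over the p53 states, the CBP genotype gave 0 of 10 (0.00684%), with 0 at an unadjusted p under 0.05 (2.57%) and 0 by DESeq2 (0.0184%).

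The other lists of the acetylation machinery held at most 1 gene at the cutoff each, and their counts in CBPWTp53ΔIEC against CBPWTp53-floxed are to be read against the 3.15% of all tested genes at the cutoff and the 20.9% with an unadjusted p under 0.05. Without the pair of libraries 1133 of all genes were at the cutoff there in place of 460. Without CBPWTp53ΔIEC replicate 1 alone 906 were. Calls under those settings are to be read against these higher counts. Among 13 other acetyltransferases 0 passed the cutoff in edgeR in the 4 comparisons of genotypes, with 0 at an unadjusted p under 0.05 in CBPWTp53ΔIEC against CBPWTp53-floxed, and the smallest p belonged to Clock, the circadian factor, at -0.48 in CBPAAp53-floxed against CBPWTp53-floxed (SE 0.22, unadjusted p = 0.0499, adjusted p = 0.618). Of 22 measured SAGA and ATAC subunits 0 passed and 4 had an unadjusted p under 0.05 in CBPWTp53ΔIEC, the nearest being Zzz3 at -0.37 in that comparison (SE 0.12, adjusted p = 0.0939). Among 16 NuA4/TIP60 subunits 1 passed in CBPWTp53ΔIEC against CBPWTp53-floxed, the AAA+ ATPase gene Ruvbl2, which rose by 0.56 (SE 0.13, adjusted p = 0.0358) and no longer passed when any 1 CBPWTp53-floxed library, or CBPWTp53ΔIEC replicate 2 or 3, was left out, with the replicate block (adjusted p = 0.0651) or with the exon length offset. Without the pair of libraries that stood apart Actl6a, an actin-related subunit, passed as well (0.60, adjusted p = 0.0148). Of 8 partners of MOZ, MORF and HBO1 0 passed and 3 had an unadjusted p under 0.05 in CBPWTp53ΔIEC (Jade3 at -0.51, SE 0.17, adjusted p = 0.111). Without the pair 2 of these 8 passed, Jade3 at -0.66 (adjusted p = 0.0198) and Jade2 at -0.79 (adjusted p = 0.0148), scaffold proteins of the HBO1 complexes, as 2 did without CBPWTp53ΔIEC replicate 1 alone. Of 10 MSL and NSL subunits, which work with MOF, 0 passed and 0 had an unadjusted p under 0.05 in any of the 4 comparisons (Msl2 at 0.27, SE 0.14, adjusted p = 0.419, in CBPAAp53ΔIEC against CBPAAp53-floxed).

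Erasers and readers of the mark had 1 gene each at the cutoff, where 3.15% of all tested genes passed. Of 18 histone deacetylases and sirtuins, Hdac11 fell by 0.57 (SE 0.15, adjusted p = 0.0499) in CBPWTp53ΔIEC against CBPWTp53-floxed. Of 13 readers of acetyl-lysine, Mllt3, which encodes the YEATS-domain protein AF9, fell by 0.58 (SE 0.14, adjusted p = 0.0460). Neither call was stable, since Hdac11 missed the cutoff in 12 and Mllt3 in 10 of 20 alternatives. Both were lost when any 1 CBPWTp53-floxed library, CBPAAp53-floxed replicate 1 or 3, CBPWTp53ΔIEC replicate 2 or 3, or CBPAAp53ΔIEC replicate 2 was left out, and with the replicate block (adjusted p = 0.0937 for Hdac11 and 0.0877 for Mllt3). Hdac11 was lost also without CBPAAp53ΔIEC replicate 1, with DESeq2 size factors and with the 2 groups alone, and Mllt3 with the exon length offset. Without the pair of libraries both passed, and Hdac5, another deacetylase gene, did too (-0.58, adjusted p = 0.0184), where 1133 of all genes passed in place of 460. Of the 17 measured factors that bind CBP or p300 0 passed and 2 had an unadjusted p under 0.05 in either single mutant (Cited4 at 0.59, SE 0.20, adjusted p = 0.618, in CBPAAp53-floxed), and without the pair Cited4 passed in CBPWTp53ΔIEC (0.56, adjusted p = 0.0470). Of the 8 genes of acetyl-CoA supply 0 passed and 2 had an unadjusted p under 0.05 in CBPWTp53ΔIEC (Pdha1, of pyruvate dehydrogenase, at -0.32, SE 0.12, adjusted p = 0.132). None of the 10 lists had a gene at the cutoff in the other 3 comparisons of genotypes.

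**Figure D5:**
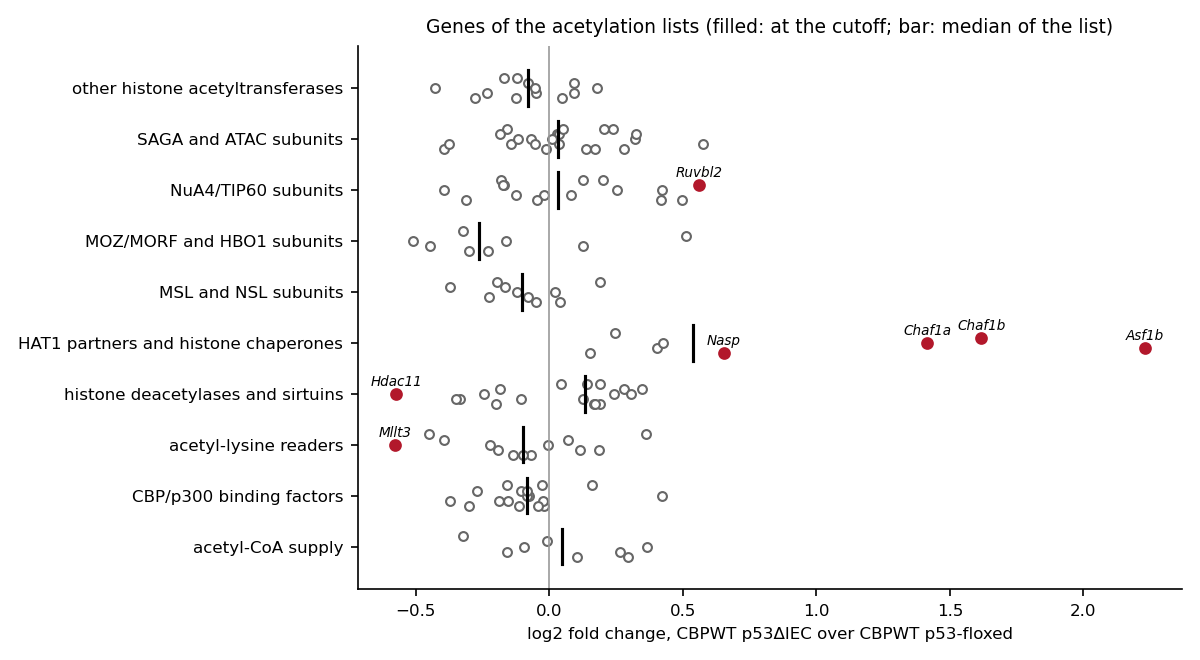
Log2 fold change of the genes of 10 acetylation lists in CBPWTp53ΔIEC over CBPWTp53-floxed crypts. Each circle is 1 gene, filled where it passed the cutoff, and vertical bars mark the median of a list. The list of HAT1 partners and histone chaperones holds the 3 largest changes and a median of 0.54.

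The genes whose levels tracked those of Crebbp and Ep300 most closely differed between the paralogues. By Pearson's r of log2 CPM over the 12 libraries, Crebbp was most like Spry2 (0.97), Pik3c2b (0.95) and Proser1 (0.93), and Ep300 was most like Ern1 (0.98), Atf7 (0.97) and Ice1 (0.97). The exons of the latter 3 cover 8173 to 11190 bases. These are rankings over all tested genes in libraries that share differences between genotypes and in preparation, and no test was attached to them.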

How the data were processed

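RNA of colonic crypts, freed with EDTA, was extracted with TriZol, and libraries were sequenced on an Illumina NovaSeq 6000. The labels name a stranded mRNA kit, the study's methods an unstranded name of the same product line. The authors deposited 1 table of raw read counts and TPM per gene and library. Per the labels, the processing tools were fastp 0.20.0, FastQC 0.11.9, HISAT2 2.1.0, SAMtools 1.9 and featureCounts of Subread 2.0.1, with the GRCm38 build. The strand setting of the counting is not given in the sources used here. The table also holds the authors' own log2 fold changes with p and adjusted p for 5 comparisons, which were not used.

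Groups came from the labels. Counts were tested with edgeR 4.0.16 (limma 3.58.1, R 4.3.3): filterByExpr with a minimum count of 10, TMM scaling, a robust quasi-likelihood fit of 1 factor with 4 groups over 12 libraries, and Benjamini-Hochberg adjustment over all 14610 tested genes. The cutoff for a call was an adjusted p below 0.05 together with a log2 difference larger than 0.5 in either direction. The 95% intervals came from the same fit. Levels are the deposited TPM, summarised as mean ± SD of 3 mice, and centred log2 CPM used a prior count of 2. TPM and CPM can order libraries differently, since TPM is a share of each library and CPM was corrected for composition with TMM. Exon lengths and positions came from GENCODE vM21, and the coding stretches from its transcripts. Depth per library limits single values to counting error of 130 reads (Kat8) and upwards. Replicates of a group differed by more than sampling noise (chi-square per degree of freedom 6.6 to 63.3), so none was treated as a duplicate. DESeq2 1.42.0, other filters and scalings, each library left out and a replicate block were alternatives, and leaving out 2 libraries or adding an exon length offset was chosen after seeing the data. The steps were tested on simulated data. Figures used matplotlib.

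The 10 genes and the gene lists were chosen with earlier results of these data known. The genes named were all 10 members, Trp53, up to 3 genes at the cutoff with the smallest p from each list and comparison (or, where a list had none, its gene with the smallest p), and the 3 genes most like Crebbp and Ep300. In CBPWTp53ΔIEC against CBPWTp53-floxed, Nasp is the fourth of its list and was named after its value was seen, as were Actl6a, Jade2 and Hdac5, which passed only under an alternative.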

Additional observations from a re-analysis of the deposited data

Results flagged for a closer look

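The effect of p53 deletion differed between the CBP genotypes at an unadjusted p under 0.05 for 4 of the 10 genes (10.3% of all tested genes had such a p), and for none of them after adjustment over all tested genes in edgeR's quasi-likelihood fit (adjusted p = 0.482 for each). The difference, the effect in CBPAA minus that in CBPWT crypts, was 0.84 for Ep300 (unadjusted p = 0.00557), 0.69 for Kat6a (unadjusted p = 0.0324), 0.49 for Kat6b (unadjusted p = 0.0455) and -0.41 for Hat1 (unadjusted p = 0.0275). Over all alternatives it ranged from 0.53 to 1.02 for Ep300, from 0.32 to 0.90 for Kat6a, from 0.16 to 0.68 for Kat6b and from -0.47 to -0.32 for Hat1. The lowest values for Ep300 and Kat6a came without CBPAAp53-floxed replicate 2 and CBPWTp53ΔIEC replicate 1, and those for Kat6b with an offset for exon length.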

How the results depend on the processing

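Values of the 10 genes moved between alternatives. In CBPAAp53-floxed against CBPWTp53-floxed, Ep300 ranged from -0.65 to -0.27 and Kat6b from -0.45 to -0.06 over all of them. The number of genes at the cutoff also depended on the method. In the order of the 4 comparisons of genotypes (CBPAAp53-floxed and CBPWTp53ΔIEC against CBPWTp53-floxed, CBPAAp53ΔIEC against CBPAAp53-floxed and against CBPWTp53ΔIEC) it was 0, 460, 4 and 1 as reported, and 33, 865, 69 and 1 with DESeq2, which gave 5 for the averaged CBP genotype and 30 for the interaction in place of 1 and 1. Without a filter on low counts the first was 3, the third 11 and the interaction 2. With the replicate number as a block the counts were 32 for the second, 2 for the third, 0 for the fourth, 304 for averaged p53 deletion (511 as reported) and 0 for the interaction, and the block took the adjusted p of Hat1 in CBPWTp53ΔIEC to 0.0752 and left 0 genes of any acetylation list at the cutoff there. Replicates with the same number showed no steady common deviation (r between -0.53 and 0.55 over 18 pairs, 3 above 0.1). With 3 libraries a group these r values cannot show whether libraries were paired, and the pairing was not used. With the libraries of the 2 groups only the second was 723, the third 1 and the fourth 0. Without the 2 libraries with the lowest long genes they were 1, 1133 and 7 for the first 3, 1126 for averaged p53 deletion and 0 for the interaction, and the exon length offset gave 1 for the first. Leaving out 1 library gave 0 to 2, 1 to 906, 1 to 326 and 0 to 1 genes in the 4 comparisons, 105 to 1073 for averaged p53 deletion, 1 to 1 for the averaged CBP genotype and 0 to 1 for the interaction. For the second comparison it gave 7, 2 and 1 without CBPWTp53-floxed replicates 1, 2 and 3, and 906, 7 and 4 without CBPWTp53ΔIEC replicates 1, 2 and 3. The 326 came without CBPAAp53ΔIEC replicate 3. The cause was not tested. Of the 10 genes, 0 were at the cutoff as reported and 1 in CBPWTp53ΔIEC against CBPWTp53-floxed with DESeq2 (Kat2b), without a filter (Kat2b, -0.53), with the 2 groups only (Ep300), without the 2 libraries (Kat2b, -0.69) and by adjusted p with no fold cutoff (Hat1). Leaving out 1 library gave 0 to 1 there and 0 elsewhere, and averaged p53 deletion gave 1 (Kat2b, -0.52) without the 2 libraries. Without a filter Hat1 had an adjusted p of 0.115. Differences near 0 changed sign: Kat6b in CBPAAp53ΔIEC against CBPAAp53-floxed went from 0.01 to -0.0018 without a filter, -0.16 without the 2 libraries and -0.11 with the offset, and Crebbp there went from 0.09 to -0.0021 and -0.029 with the latter 2. Without the 2 libraries Kat2b in CBPAAp53-floxed was 0.0089, Kat8 in CBPWTp53ΔIEC 0.011, Kat5 in CBPAAp53ΔIEC against CBPWTp53ΔIEC 0.077 and Kat6b by averaged CBP genotype 0.049. With the offset Crebbp in CBPAAp53-floxed was 0.051 and Kat6b by averaged CBP genotype 0.021. Leaving out 1 library also changed signs near 0. In CBPAAp53-floxed against CBPWTp53-floxed Kat2b ranged from -0.11 to 0.0088, and in CBPWTp53ΔIEC against CBPWTp53-floxed Kat5 from -0.11 to 0.037 and Kat8 from -0.11 to 0.058. In CBPAAp53ΔIEC against CBPAAp53-floxed Kat6b ranged from -0.16 to 0.20, Crebbp from -0.0017 to 0.16 and Kat8 from -0.018 to 0.22. In CBPAAp53ΔIEC against CBPWTp53ΔIEC Kat2b ranged from -0.0011 to 0.34, Kat5 from -0.075 to 0.073 and Kat7 from -0.064 to 0.0034. For averaged p53 deletion the ranges were -0.024 to 0.091 (Kat8), -0.23 to 0.010 (Kat6a), -0.022 to 0.012 (Kat7) and -0.20 to 0.0013 (Ep300), and for the averaged CBP genotype -0.033 to 0.14 (Kat2b), -0.11 to 0.073 (Kat6b), -0.0028 to 0.031 (Kat7) and -0.14 to 0.052 (Ep300). The interaction of Kat2a ranged from -0.079 to 0.0049. With 1 library left out, 807 values of the 10 genes kept their direction and their side of the cutoff, 3 newly passed it and 30 changed sign, none of them at the cutoff as reported. Kat8 and Hat1, with 130 to 284 and 143 to 283 reads per library, were the least precise by depth.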
